A study of Mus musculus with 23 samples.

Results

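Inversion 2 (Inv2) is an engineered chromosome rearrangement of the mouse, and its distal forelimbs were compared with wild type distal forelimbs by sequencing of polyadenylated RNA. The comparison covers all 74 genes of the table that sets 4 Inv2 libraries against 5 wild type libraries, out of 79 genes that the tables of Inv1 to Inv4 list between them and 23 libraries in the series. All libraries of both groups came from limbs micro-dissected from embryos at stage E11.5. The labels give the genotypes only as WT and mutant and name G4 ESC, a mouse embryonic stem cell line, as the cell type of every library. Per the series' design text the inversions were made with CRISPR/Cas9 and move an enhancer cluster of the Epha4 domain into a gene-dense region. The number of clones and the breakpoints of Inv2 are not given in the sources used here. Nothing in the labels assigns the libraries to litters, so the spread behind each p-value is one among libraries and may be technical. The deposited means are as from 1 fit of 18 forelimb libraries, so that spread need not be that of the 9 libraries compared here.

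Genes in mammalian chromosomes are grouped in topologically associating domains, stretches within which enhancers and promoters meet more often than across their borders. Epha4 encodes a receptor for ephrins that guides cells and axons and is strongly expressed in the limb bud under the control of a cluster of distant limb enhancers. Ihh encodes Indian hedgehog, a secreted signal known mainly from growing cartilage and bone, and its misexpression in the early limb bud is known to cause extra or fused digits. Pax3 encodes a transcription factor of the muscle precursors that migrate into the limb.

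The 74 genes all lie on chromosome 1, and are the listed part of 89 protein-coding genes annotated from Bard1 to Dock10 in GENCODE for GRCm38. Values are the authors' comparison of groups and no library has a value of its own, which leaves sequencing depth unknown. Mean counts are normalised counts averaged over the 18 forelimb libraries of Inv1 to Inv4 and wild type. Positive log2 changes mean higher in Inv2 (see the sign check among the processing steps). A gene was called at an adjusted p under 0.05, as given in the authors' deposited table. By that rule 3 of 74 genes were called, which is 4.05%, with 2 higher (2.7%) and 1 lower (1.35%), and 16 (21.6%) had an unadjusted p under 0.05. By its p and adjusted p values that table is a part of a larger one, and their ratio bounds the genome-wide share of called genes at 0.313% from below and 5.22% from above. The 4.05% lies within those bounds. For the 21.6% no genome-wide share was worked out. By the authors' Wald test Arpc2 had a p of 0.0470 and an adjusted p of 0.320. Their ratio places the genome-wide share near that p well above 0.05. The 21.6% is therefore not to be read against a share of 0.05, and is no result about the listed genes. None of 4 fixed markers of limb mesenchyme is among the listed genes, so the tissue label was not checked against them.

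Ihh and Slc23a3, which lie close together, rose in Inv2. Nhej1, which lies between them and encodes a factor of DNA end joining, had a log2 change in the same direction that was not called. The 3 genes share the minus strand and are consecutive among annotated protein-coding genes. Their 250 bases upstream of the start site, from RefSeq on GRCm38.p6, are shown because they are the start regions of the 2 genes that rose and of the gene between them. They are written 5′ to 3′ on the gene's own strand, with capitals marking the letters GGGCGG of a GC box or their reverse complement. They lie at chr1:74951673-74951922 for Ihh, chr1:75125227-75125476 for Nhej1 and chr1:75133891-75134140 for Slc23a3.
Ihh: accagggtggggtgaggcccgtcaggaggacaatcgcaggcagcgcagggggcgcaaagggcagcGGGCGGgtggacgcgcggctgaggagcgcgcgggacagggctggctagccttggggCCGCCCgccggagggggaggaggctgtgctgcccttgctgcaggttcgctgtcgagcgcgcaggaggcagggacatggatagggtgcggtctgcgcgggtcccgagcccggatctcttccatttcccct
Nhej1: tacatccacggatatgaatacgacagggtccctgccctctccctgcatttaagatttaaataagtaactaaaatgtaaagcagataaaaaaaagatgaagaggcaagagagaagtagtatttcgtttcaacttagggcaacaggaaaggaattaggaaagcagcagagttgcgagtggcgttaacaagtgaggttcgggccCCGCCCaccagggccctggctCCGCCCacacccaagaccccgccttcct
Slc23a3: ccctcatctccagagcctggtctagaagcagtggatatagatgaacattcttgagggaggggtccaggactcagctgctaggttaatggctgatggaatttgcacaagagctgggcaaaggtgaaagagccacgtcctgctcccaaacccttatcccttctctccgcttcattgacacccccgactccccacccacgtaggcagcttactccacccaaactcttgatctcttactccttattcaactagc
The upstream windows differ in composition. The Ihh window is 72.0% G and C with 24 CpG, that of Nhej1 48.4% with 9, and that of Slc23a3 52.0% with 4. The median was 61.6% over the 69 of 74 listed genes with a sequence and 52.0% over 27025 promoters. GGGCGG on either strand was found at 2 places in the Ihh window, at 2 in that of Nhej1 and at none in that of Slc23a3, and 32.9% of all promoter windows of that length hold it. The letters TATAAA of a TATA box were in none of the 3 windows on either strand and in 12.97% of all windows. The same holds for the CCAAT box, which 34.5% of all windows contain. An E-box, searched as CACGTG, was again in none of them and in 6.05% of all windows. A match of letters describes the window and is no measure of binding.

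Ihh had a mean normalised count of 59.6 and a log2 change of 1.37 (SE 0.266 and adjusted p = 0.000185) per the authors' deposited table. Rebuilt from the joint mean and the fold changes of the 4 inversions, the Ihh level was 27.6 normalised counts in wild type and 71.3 in Inv2. Those fold changes appear shrunk toward 0, so rebuilt levels of genes with low counts may lie too close together. Slc23a3, a member of a family of membrane transporters, had a mean normalised count of 9.40 and a log2 change of 1.18 (SE 0.269 and adjusted p = 0.00344) per the authors' deposited table. Its rebuilt level was 6.10 in wild type and 13.9 in Inv2, so this call rests on the fewest counts of the 3 called genes. Nhej1 had a mean normalised count of 189 and a log2 change of 0.32 (SE 0.117 and adjusted p = 0.132) per the authors' deposited table. Its 95% interval from the SE, 0.0867 to 0.544, excludes 0, and its rebuilt level was 177 in wild type and 220 in Inv2.

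The genes on either side of these 3 were not called. On the Slc23a3 side, Fam134a, an endoplasmic reticulum protein gene, had a log2 change of 0.04 (SE 0.070), and Zfand2b, a zinc finger gene, had 0.07 (SE 0.099) per the authors' deposited table. Their intervals reach from -0.0982 to 0.177 and from -0.127 to 0.259, so a rise of the size seen in Ihh lies outside both. On the other side, Fev, an ETS transcription factor gene of serotonergic neurons, had a log2 change of 0.55 (SE 0.266 and adjusted p = 0.298) per the authors' deposited table. Cdk5r2, an activator of a neuronal kinase, had 0.32 (SE 0.250), Wnt10a, a ligand gene of the ectoderm, 0.25 (SE 0.182), and its neighbour Wnt6 -0.08 (SE 0.131) per the authors' deposited table. Taken with Ihh, these are 5 consecutive listed genes whose log2 changes are in ascending order from Wnt6. The differences between neighbours were not tested, and the intervals of Wnt6, Wnt10a and Cdk5r2 include 0. Wnt10a, Cdk5r2 and Fev had similar uncalled values in Inv1, at 0.32, 0.31 and 0.57, where Ihh was at 0.13 per the authors' deposited table.

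**Figure D1:**
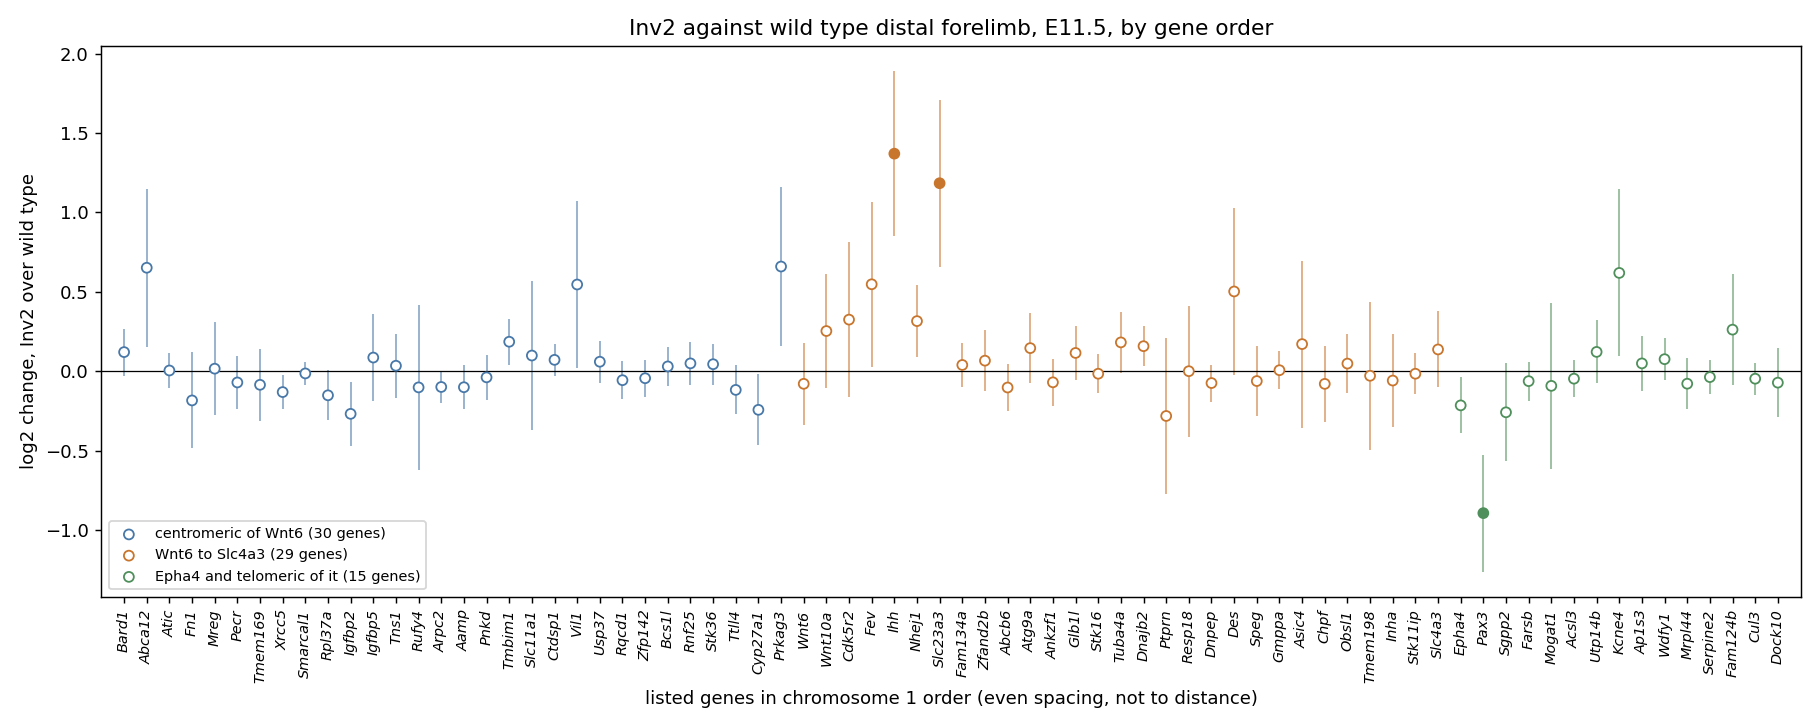
Log2 change of Inv2 over wild type for the 74 listed genes in chromosome 1 order, evenly spaced, with bars for the 95% interval from the SE. Filled points are the 3 called genes: Ihh at 1.37 and Slc23a3 at 1.18 stand above 0 with Nhej1 between them, and Pax3 at -0.89 stands below 0.

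Pax3 fell. With a mean normalised count of 121, it had a log2 change of -0.89 (SE 0.188 and adjusted p = 0.00102) per the authors' deposited table. Its rebuilt level was 179 in wild type and 96.6 in Inv2. In bulk tissue, fewer Pax3-expressing cells and less Pax3 RNA per cell cannot be told apart. Of the 4 muscle precursor markers (Pax3, Lbx1, Myf5 and Des) only Pax3 and Des are listed, and Des, the intermediate filament gene of muscle, had a log2 change of 0.50 (SE 0.268 and adjusted p = 0.359) per the authors' deposited table. The 2 listed markers therefore had opposite signs, and the part of the muscle precursor content in the Pax3 change was not tested.

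Epha4 lies next to Pax3 among the listed genes. It had a mean normalised count of 8914, a log2 change of -0.22 (SE 0.090) and an adjusted p of 0.204 per the authors' deposited table. Its interval of -0.392 to -0.0384 excludes 0 although the gene was not called, and the rebuilt level was 9902 in wild type and 8529 in Inv2. Against the same wild type libraries Epha4 was called in Inv1, at -0.44 (adjusted p = 0.00739) per the authors' deposited table. It was not called in Inv3, at -0.07, or in Inv4, at -0.15, per the authors' deposited table. On the far side of Pax3, Sgpp2, a sphingosine phosphatase gene, had a log2 change of -0.26 (SE 0.158 and adjusted p = 0.445), and Farsb, a subunit of a tRNA synthetase, had -0.06 (SE 0.063) per the authors' deposited table. Epha4, Pax3, Sgpp2 and the 3 genes after them, Farsb, Mogat1 and Acsl3, all had negative log2 changes. The intervals of Sgpp2, Farsb, Mogat1 and Acsl3 include 0. The next genes, Utp14b and Kcne4, were positive at 0.12 and 0.62 per the authors' deposited table. This run of signs was seen in the data and not tested.

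Read along the chromosome, the list falls into 30 genes centromeric of Wnt6, 29 from Wnt6 to Slc4a3 and 15 from Epha4 on. In the first zone 15 genes had a positive and 15 a negative log2 change, with a median of -0.0048. In the second 17 were positive, 11 negative and 1 listed at 0, with a median of 0.05. In the third 5 were positive and 10 negative, with a median of -0.05. Over all 74 genes the median was 0.00223, with 37 positive and 36 negative. Differences between the zones were not tested.

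Between Fam134a and Stk16, 7 genes of general cell function, no gene had an unadjusted p under 0.05, and log2 changes ran from -0.10 (Abcb6, a transporter of porphyrins) to 0.15 (Atg9a, an autophagy gene) per the authors' deposited table. All 7 intervals lay within -0.5 and 0.5. Beyond them, Tuba4a, an alpha-tubulin gene, had a log2 change of 0.18 (SE 0.098, p = 0.0630) and Dnajb2, a co-chaperone gene, had 0.16 (SE 0.065, p = 0.0155, adjusted p = 0.194) per the authors' deposited table. Ptprn, a gene of dense-core vesicles, had -0.28 (SE 0.251), and Dnpep, an aminopeptidase gene, had -0.07 (SE 0.059) per the authors' deposited table. Resp18, with a joint mean normalised count of 4.81, was listed at exactly 0 in Inv2 and Inv3 and at 1.66 in Inv1. That mean includes Inv1 and does not give the level of Resp18 in wild type or Inv2. Resp18 is not listed for Inv4, so its levels were not rebuilt, and the 0 is no measure of unchanged expression. The 10 genes from Des to Slc4a3 held no unadjusted p under 0.05. After Des at 0.50, their highest values were 0.17 for Asic4, an ion channel gene, and 0.14 for Slc4a3, an anion exchanger gene, and the lowest was -0.08 for Chpf, an enzyme of chondroitin synthesis, per the authors' deposited table.

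Centromeric of Wnt6 no gene was called, and 8 of 30 had an unadjusted p under 0.05, with 4 in each direction. Among all 74 listed genes it was 16 (21.6%). The highest were Prkag3, a muscle subunit of AMP-activated kinase and the immediate neighbour of Wnt6, at 0.66 (SE 0.256 and adjusted p = 0.158) and Abca12, a lipid transporter of skin, at 0.65 (SE 0.254 and adjusted p = 0.160) per the authors' deposited table. Vil1, an actin-bundling gene of epithelia, had 0.55 (SE 0.268) at a mean normalised count of only 7.66, and Tmbim1, a membrane protein gene, had 0.19 (SE 0.074) per the authors' deposited table. Tmbim1 lies inside Pnkd on the opposite strand and Vil1 overlaps the end of Usp37, and the sources used here do not state whether counting used strand. The 4 on the negative side were Igfbp2, an IGF binding protein gene, at -0.27 (SE 0.102 and adjusted p = 0.148), Cyp27a1, a sterol hydroxylase gene, at -0.24 (SE 0.114), Xrcc5, the Ku80 gene of DNA repair, at -0.13 (SE 0.055) and Arpc2, a subunit of the Arp2/3 complex, at -0.10 (SE 0.050) per the authors' deposited table. Igfbp5, next to Igfbp2, had 0.09 (SE 0.140) per the authors' deposited table, with an interval that includes 0. Telomeric of Pax3, Kcne4, a potassium channel subunit gene, was the highest at 0.62 (SE 0.268 and adjusted p = 0.224), ahead of Fam124b at 0.26 (SE 0.178) per the authors' deposited table. Both have mean normalised counts under 100, at 19.99 and 42.2.

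Read by mean count, the larger changes sat among genes of low abundance. Of 34 genes with a mean normalised count of 1000 or more, none had a log2 change of 0.5 or more in either direction, and their values ran from -0.27 to 0.16. In the class of 100 to under 1000, 3 of 23 genes reached 0.5 (Pax3, Fev and Des), in that of 10 to under 100 it was 4 of 12 (Ihh, Prkag3, Abca12 and Kcne4), and under 10 it was 2 of 5 (Slc23a3 and Vil1). Signs also differed between classes. Below 100 there were 11 positive and 5 negative genes with a median of 0.25, and at 100 or more there were 26 positive and 31 negative with a median of -0.02. In the class of 1000 and over, 22 of 34 were negative. All 6 genes under 100 with an unadjusted p under 0.05 were positive, against 4 of 10 at 100 or more. The same 6 genes (Abca12, Vil1, Prkag3, Ihh, Slc23a3 and Kcne4) were also positive in Inv1, Inv3 and Inv4. Those inversions were set against the same wild type libraries, so these signs are not particular to Inv2. Across the 74 genes the Spearman correlation of log2 change with mean count was -0.376, that of its absolute size with mean count -0.388, and that of the absolute Wald score with mean count -0.0636. These correlations are across genes measured in the same libraries and are a description. The Spearman correlation with transcript GC content was 0.160 for the log2 change.

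The mean count can mislead for genes that another inversion raised. Fev has a joint mean of 113, but the rebuilt level was 5.92 in wild type and 8.65 in Inv2, since the mean is carried by Inv3. Ptprn, with a joint mean of 81.2, was at a rebuilt 26.5 and 21.8. With means rebuilt for the wild type and Inv2 libraries alone, a step chosen after seeing the data, 3 of 72 genes changed class (Fev, Asic4 and Speg). Then 12 of 16 genes under 100 were positive and 4 negative, with a median of 0.29.

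**Figure D2:**
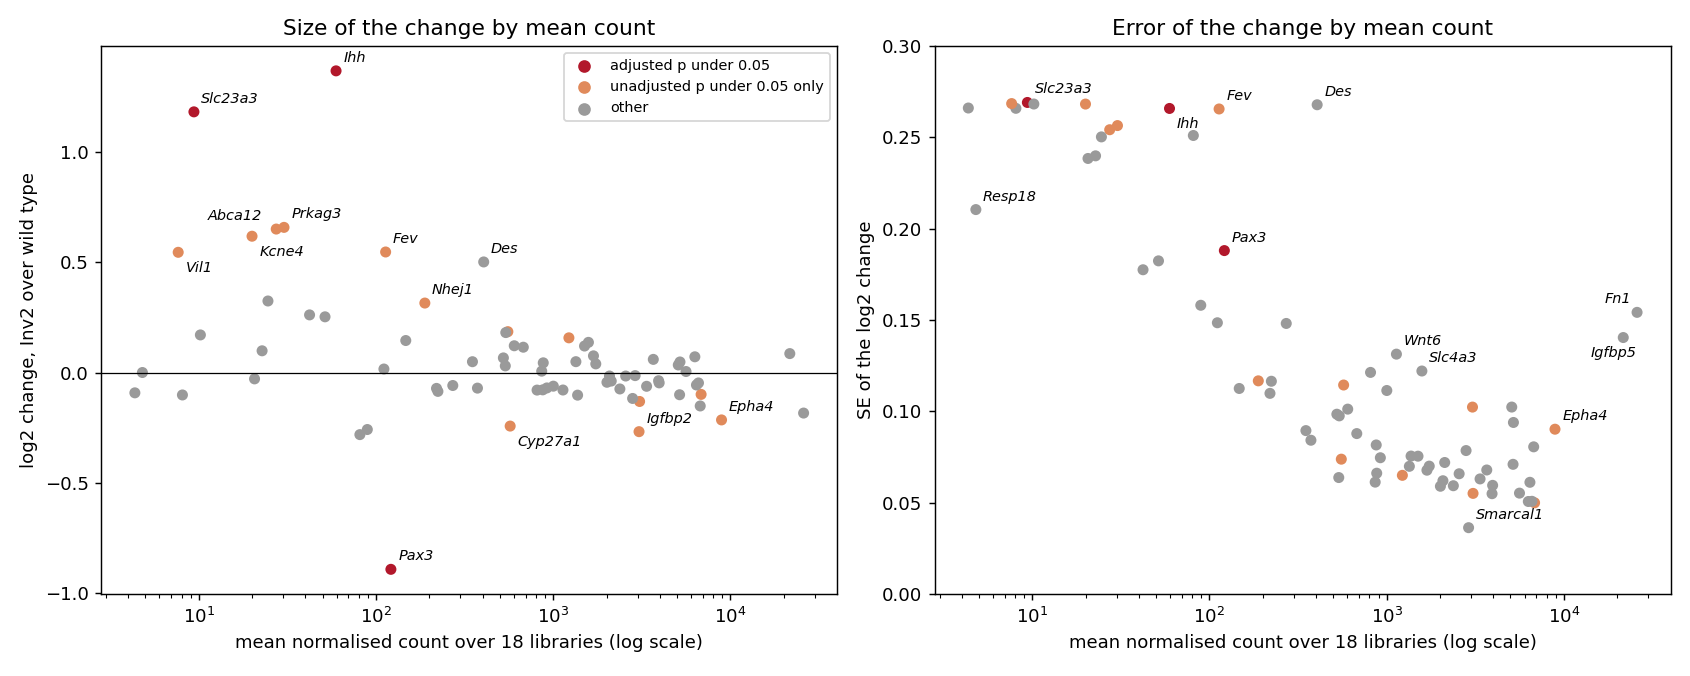
Log2 change of Inv2 over wild type (left) and its SE (right) against the mean normalised count on a log scale, for each of the 74 genes. Changes of 0.5 or more in either direction appear only at means below 1000, where the SE reaches up to 0.269.

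What could be called at all depended on this error. The limits of the share called genome-wide place the Wald score needed for a call between 3.01 and 3.78. For a gene with the median SE of the class under 10, that is a change of 1.74-fold to 2.01-fold. It is 1.69-fold to 1.93-fold at 10 to under 100, 1.24-fold to 1.30-fold at 100 to under 1000 and 1.16-fold to 1.20-fold at 1000 and over. For Prkag3 a log2 change of 0.772 to 0.969 was needed, and its value was 0.66. For Nhej1 it was 0.351 to 0.441, against 0.32 found. Epha4 would have needed a log2 change of 0.272 to 0.341 in size. Such limits hold for the deposited log2 changes, which appear shrunk toward 0 at low counts. They are not limits of detection for the unshrunk change.

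Some genes had a larger error than genes of like joint mean count. The SE of Des, 0.268, was 2.86 times the median SE of the 10 genes nearest to it in mean count. The ratio was 2.33 for Fn1, the fibronectin gene, 2.12 for Igfbp5, 1.78 for Tns1, a focal adhesion gene, 1.75 for Wnt6 and 1.74 for Slc4a3. It was lowest for Smarcal1, a gene of replication fork repair, at 0.565, with a log2 change of -0.01 and an interval of -0.0855 to 0.0573. The values of Des and Wnt6 are accordingly wide, and an interval of -0.0226 to 1.03 for Des includes 0.

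By function, no fixed group held more than 1 called gene. Of 7 listed secreted factors (Igfbp2, Igfbp5, Wnt6, Wnt10a, Ihh, Inha and Serpine2), 1 rose, none fell, 4 had a negative sign, and the median was -0.04. Of 6 transporters and channel subunits, 1 rose (Slc23a3) and 5 had a positive sign, with a median of 0.38, and 4 of the 6 have means under 100. The 5 genes of translation and RNA handling (Rpl37a, Aamp, Rqcd1, Farsb and Mrpl44) all had negative values between -0.15 and -0.06, and none was called. Of 7 chaperone and proteolysis genes 5 were positive and none was called. Among 5 muscle genes Pax3 fell and Prkag3 and Des had the highest values, and of 5 neuronal or neuroendocrine genes none was called. The other 9 of 10 fixed hedgehog pathway genes, such as Ptch1 and Gli1, are not among the listed genes and were not analysed here, so no readout of hedgehog signalling stands beside the Ihh value. Pax3 was also the 1 called gene of 3 transcription factors. No gene was called among 6 of actin, tubulin and adhesion, 9 enzymes or 4 of DNA repair, with medians of -0.03, -0.07 and 0.05. All 74 genes had a median of 0.00223 and 4.05% called. Of the fixed cell type markers, Wnt6 and Wnt10a stand for the surface ectoderm and Slc11a1, at a log2 change of 0.10 (SE 0.240) per the authors' deposited table, for macrophages. Of the 4 fixed cartilage markers (Ihh, Sox9, Col2a1 and Acan) only Ihh is listed, so no other cartilage marker stands beside its rise, and the part of cartilage content in it was not tested. Markers of blood, nerve and endothelium are not among the listed genes.

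Inv2 differed from the other inversions at a small set of genes. Inv1, Inv3 and Inv4, with 3 libraries each, were set against the same wild type libraries, and 8.97%, 32.9% and 20.8% of their listed genes were called. Each pair of log2 changes was subtracted and divided by the combined SE of both. The p from the normal distribution was adjusted by Benjamini-Hochberg across every gene both tables list. The combined SE counts the shared wild type error in both changes, so it is too large and the test conservative. From Inv1 Inv2 differed at 6 of 74 genes (8.11%), 1 of them higher in Inv2. From Inv3 it differed at 3 of 74 (4.05%) and from Inv4 at 3 of 72 (4.17%), and at an unadjusted p under 0.05 the counts were 9 (12.2%), 10 (13.5%) and 5 (6.94%). With the shared wild type part of the error removed, Inv2 differed from Inv3 at 10 genes, among them Nhej1 and Igfbp2, from Inv1 at 8, with Fam134a and Cyp27a1 added, and from Inv4 at the same 3.

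Tuba4a was the gene that differed from all 3. Per the authors' deposited table its log2 changes were 1.84 in Inv1, 0.18 in Inv2, -0.50 in Inv3 and -0.44 in Inv4. The difference of Inv2 minus Inv3 was 0.68 (SE 0.146 and adjusted p = 0.000121) and that of Inv2 minus Inv4 was 0.62 (SE 0.148 and adjusted p = 0.000587) by the normal test of the difference. The remaining genes lower than in Inv1 were its neighbours Dnajb2 (difference -0.78, SE 0.094), Ptprn, Resp18 and Dnpep (difference -0.64, SE 0.087), and Ihh was the gene higher than in Inv1. Fev was lower than in Inv3 by a difference of -6.21 (SE 0.356), and Cdk5r2 by a difference of -1.11 (SE 0.354 and adjusted p = 0.0433). Relative to Inv4, Cyp27a1 was lower by a difference of -1.79 (SE 0.165) and Prkag3 by -2.36 (SE 0.360).

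The called genes of Inv2 did not pass that test against Inv3 or Inv4. Ihh and Pax3 were also called in both of those inversions. Ihh was at 1.77 in Inv3 (adjusted p = 6.46e-09) and 1.74 in Inv4 (adjusted p = 4.77e-08) per the authors' deposited table. Pax3 was at -1.42 in Inv3 (adjusted p = 4.14e-10) and -0.84 in Inv4 (adjusted p = 0.000871) per the authors' deposited table. In Inv1 Pax3 was not called but also negative, at -0.43 (adjusted p = 0.663) per the authors' deposited table. For Ihh the difference of Inv2 minus Inv3 was -0.40 (interval -1.14 to 0.342) and that of Inv2 minus Inv4 was -0.37 (-1.11 to 0.371). For Pax3 they were 0.53 (-0.0102 to 1.07) and -0.05 (-0.592 to 0.485). The Pax3 difference of Inv2 minus Inv1 was -0.47 (-0.999 to 0.0633) and did not pass either. These intervals include 0, that of Pax3 against Inv3 only just. All intervals of differences given here count the wild type error of both changes and are too wide. With that part removed, Ihh, Pax3 and Slc23a3 were still not among the genes differing from Inv3 or Inv4 after adjustment. Slc23a3 was called in Inv2 alone, but its log2 change was positive in each table, with 0.70 in Inv1, 1.18 in Inv2, 0.51 in Inv3 and 0.57 in Inv4 per the authors' deposited table. The differences of Inv2 from Inv1, Inv3 and Inv4 were 0.48 (-0.264 to 1.22), 0.67 (-0.0728 to 1.41) and 0.61 (-0.131 to 1.35), and none passed. Nhej1 had 0.25 in Inv1 and 0.32 in Inv2 but -0.07 in Inv3 and -0.08 in Inv4 per the authors' deposited table. Its differences of 0.39 from Inv3 (0.0520 to 0.728, adjusted p = 0.220) and 0.40 from Inv4 (0.0504 to 0.740, adjusted p = 0.444) did not pass the normal test with adjustment.

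For Abca12, Kcne4 and Prkag3, uncalled in Inv2, the values side by side followed one order per the authors' deposited table, with Inv2 above Inv1 and below Inv3 and Inv4. For Abca12 these were 0.37, 0.65, 1.32 and 1.13 in Inv1 to Inv4, and for Kcne4 0.20, 0.62, 1.26 and 0.91, per the authors' deposited table. Prkag3 had 0.31, 0.66, 1.28 and 3.01 per the authors' deposited table. Apart from Prkag3 against Inv4, none of the differences of these genes from Inv2 passed. The 4 comparisons share the wild type libraries, so a wild type level that is high or low enters all 4 values of a gene in the same direction.

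**Figure D3:**
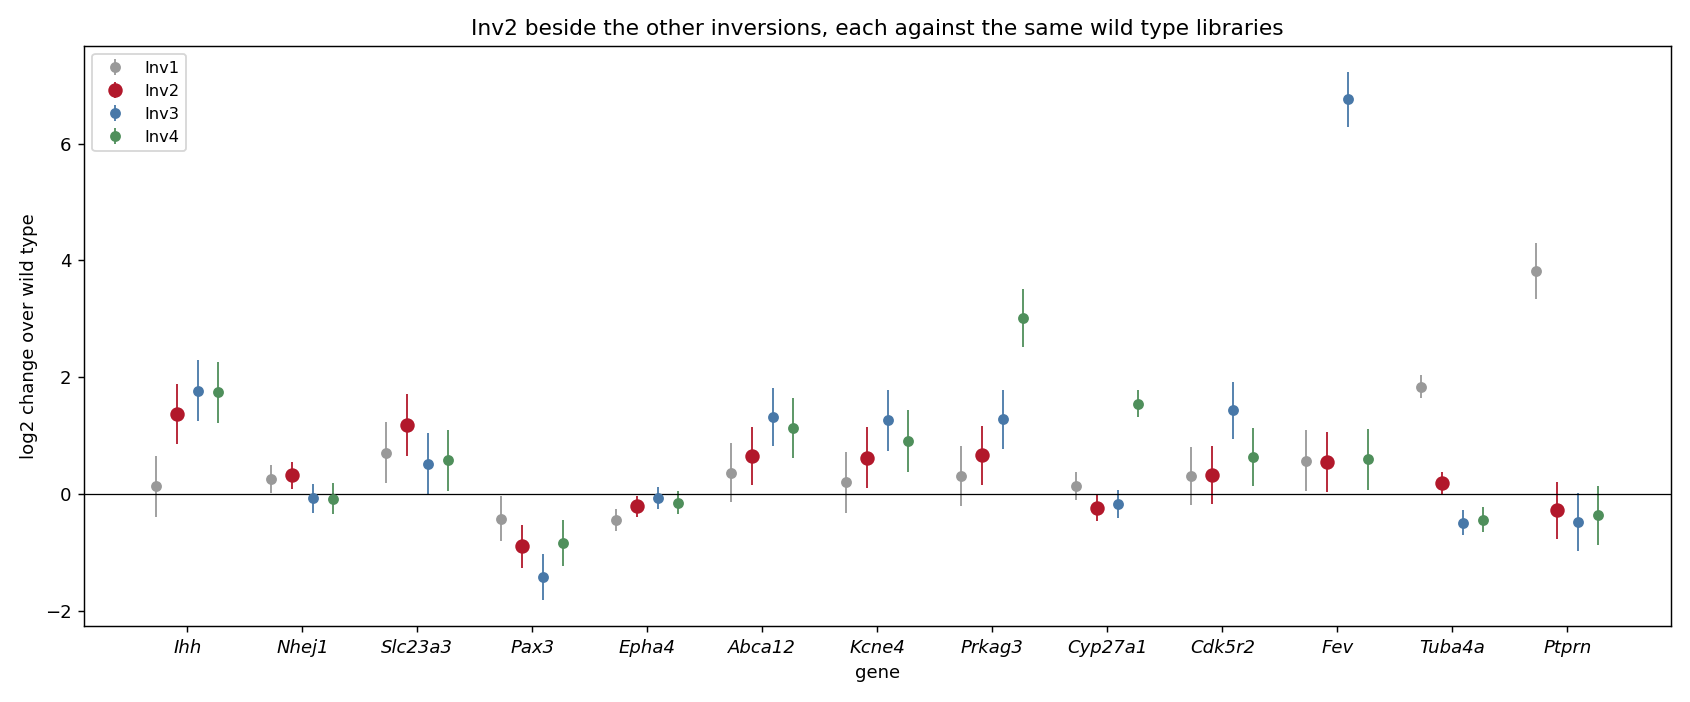
Log2 change over wild type with bars for the 95% interval from the SE for 13 genes in Inv1 to Inv4, each against the same wild type libraries. The interval of Inv2, in red, overlaps those of Inv3 and Inv4 at Ihh and Pax3, and lies far from Inv3 at Fev, from Inv4 at Prkag3 and Cyp27a1 and from Inv1 at Tuba4a and Ptprn.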

How the data were processed

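The authors deposited tables of comparisons, made with STAR, DESeq2 and build mm9 per the submitters' processing notes, whose versions and settings are not given in the sources used here. Per the file headers each deposited table holds a mean normalised count (a signal pooled over libraries), a log2 fold change with its SE, a Wald score, a p-value and an adjusted p-value. Means are identical between the tables against wild type, as from 1 fit of 18 libraries. The SE stays at or under 0.269 even at means under 10, as with fold changes shrunk toward 0, which understates changes of low genes.

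The headers name no numerator. Group means rebuilt with positive as higher in the inversion were set against the Inv1DelCTCF table over 49 genes, and the median absolute residual was 0.0124. It was 0.107 or more under the other conventions and 0.0254 with the Inv2 table alone reversed.

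The members, lists and tests were chosen with earlier results of these data known. Named genes were the called ones, those with an unadjusted p under 0.05, neighbours of called genes, extremes in log2 change or mean count, genes differing between inversions, and a fixed set around the locus. Gene order, strand and overlaps came from GENCODE M21 on GRCm38, where all 74 genes matched, 2 through older symbols. On 200 simulated tables of 74 genes for Inv2 minus Inv3, 10 genes drawn at random differed by 1 on the log2 scale. The difference test recovered 88.9% of them, and on average 0.141% of its calls were false. Values were drawn from the SEs that the test itself uses. This average over genes does not give the recovery for genes with a large SE, such as Ihh and Slc23a3. Alternatives covered thresholds, minimum counts and changes, centring and Wald scores. Computation used Python 3.11.15 with numpy 2.4.6, pandas 2.3.3, SciPy 1.17.1 and, for plots, matplotlib 3.10.9.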

Additional observations from a re-analysis of the deposited data

How the results depend on the processing

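The count of called genes stayed at 3 with an adjusted p under 0.01 or under 0.1, and was 2 with a mean count of at least 10, which leaves out Slc23a3, or with an absolute log2 change of at least 1, which leaves out Pax3. The zone medians kept their sign under each minimum count, after centring and on Wald scores, but that of the genes centromeric of Wnt6 moved from -0.0048 to -0.0387 at a mean count of at least 100. The median of all listed genes changed sign there, from 0.00223 to -0.016. The number of genes differing between Inv2 and Inv3 was 3, and 10 with the wild type part of the error removed, where equal variance per library is assumed. Under that alternative the number went from 6 to 8 against Inv1, gaining Fam134a and Cyp27a1, and stayed at 3 against Inv4. No paired analysis was possible because the tables hold no value per library, and for the same reason no library could be left out.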
